A study of Mus musculus with 16 samples.

Results

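Cytotoxic granules were followed through 9 genes in sorted CD8 T cells of leukaemia-bearing mice: the granzyme genes Gzma, Gzmb, Gzmk and Gzmm, the perforin gene Prf1, and Nkg7, Srgn, Ctsw and Lamp1, which encode other proteins of the granule. They were chosen by name, as the genes with a probe set mapped to that gene symbol alone, and all 9 were measured among 22180 genes. Each has 1 such probe set. Prf1 also has 1 probe set shared with another symbol, which was not used. Expression was read on 1-colour Affymetrix arrays, with 4 arrays for each of 4 groups, which are the effector and the memory cells of KO and of WT chimeras. All mice were bone marrow chimeras labelled as female and of strain C56BL/6, with Il4i1 knockout (KO) or wild-type (WT) marrow, and all had received CLL cells from Eµ-TCL1 mice, a mouse model of chronic lymphocytic leukaemia, 5 weeks before the spleen was taken. Effector cells were sorted as CD44 positive and CD127 negative, and memory cells as high for both. Il4i1 encodes a secreted oxidase of aromatic amino acids. The genotype labels describe the marrow, so that every cell made from it carries the same genotype; the Il4i1 status of the host tissue and of the leukaemia cells, and the age of the mice, are not stated in the labels.

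A cytotoxic T cell kills by releasing granules towards a bound target cell. Perforin opens the membrane of the target, granzymes (serine proteases) enter and cut proteins there, and the proteoglycan serglycin, the product of Srgn, holds them in the granule until release. Granzyme B is the classical trigger of apoptosis, granzyme A is a trypsin-like protease, granzyme K is a close relative of granzyme A, and granzyme M is best known from NK cells and innate-like lymphocytes. Nkg7 encodes a granule membrane protein needed for efficient release, Ctsw a cathepsin of cytotoxic lymphocytes, and Lamp1 the lysosomal membrane protein CD107a, which reaches the cell surface when granules fuse with it.

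The stretches of genome before the start sites are shown for 5 of these genes, which were chosen for their expression values described below. Lamp1 alone passed between KO and WT, and Gzma and Gzmm were spread among the effector KO arrays. Among the granule genes, Gzmb and Prf1 had the largest falls in memory KO against memory WT, which did not pass. Each line holds the 250 bases before the start, 5′ to 3′ on the strand of the gene, from RefSeq on build GRCm38.p6. Capitals mark matches on either strand to the RUNX motif TGTGGT, the T-box motif GGTGTGA, the AP-1 motif TGANTCA and the E-box CACGTG, letters that RUNX3, T-bet and eomesodermin, AP-1 factors, and the lysosomal regulator TFEB with its relatives are known to bind. No match overlapped another in these genes. Gzmm has 2 annotated starts, of which the first listed is shown.
Lamp1, chr8:13158911-13159160, plus strand: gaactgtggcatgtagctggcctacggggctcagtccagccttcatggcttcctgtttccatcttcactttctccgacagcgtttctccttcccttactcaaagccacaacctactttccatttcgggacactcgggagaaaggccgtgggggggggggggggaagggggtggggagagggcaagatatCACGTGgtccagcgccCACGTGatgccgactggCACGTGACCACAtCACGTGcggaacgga
Gzma, chr13:113100982-113101231, minus strand: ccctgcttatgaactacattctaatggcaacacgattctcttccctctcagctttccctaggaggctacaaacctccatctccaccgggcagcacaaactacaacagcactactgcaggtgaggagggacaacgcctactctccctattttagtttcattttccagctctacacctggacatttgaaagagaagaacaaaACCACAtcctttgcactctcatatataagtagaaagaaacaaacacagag
Gzmb, chr14:56262335-56262584, minus strand: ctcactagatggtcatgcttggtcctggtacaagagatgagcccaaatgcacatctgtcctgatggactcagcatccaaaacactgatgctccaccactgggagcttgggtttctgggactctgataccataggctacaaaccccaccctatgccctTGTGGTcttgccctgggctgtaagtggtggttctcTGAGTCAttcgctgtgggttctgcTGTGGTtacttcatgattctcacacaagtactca
Gzmm, chr10:79688770-79689019, plus strand: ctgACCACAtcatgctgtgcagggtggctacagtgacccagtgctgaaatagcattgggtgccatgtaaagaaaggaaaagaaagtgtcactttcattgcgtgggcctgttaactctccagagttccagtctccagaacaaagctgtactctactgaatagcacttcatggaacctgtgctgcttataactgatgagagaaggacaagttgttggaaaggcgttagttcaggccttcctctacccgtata
Prf1, chr10:61297586-61297835, plus strand: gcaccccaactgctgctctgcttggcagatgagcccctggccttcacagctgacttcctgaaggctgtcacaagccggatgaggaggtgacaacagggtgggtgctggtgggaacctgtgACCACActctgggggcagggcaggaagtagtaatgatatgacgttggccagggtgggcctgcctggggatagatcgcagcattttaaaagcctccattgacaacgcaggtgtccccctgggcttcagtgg

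Of 10 such windows before 8 of the 9 genes, 7 held the RUNX motif, against 14% of all 32851 windows. Gzmb had it 93 and 34 bases before the start, with an AP-1 match between them at 58 bases. In Gzma it lay 50 bases and in Prf1 130 bases before the start. The T-box motif was found in 3 of the 10 windows, before Gzmk, Nkg7 and the second start of Gzmm, against 3.33% of all windows. The E-box was found in 2 of the 10 windows, before Lamp1 and the second start of Gzmm, against 6.02% of all windows. Lamp1 held 4 E-box matches in its last 61 bases, with a RUNX match between them. Gzmm held 1, at 9 bases before its second start. The only AP-1 match was that of Gzmb, against 6.75% of all windows. These are matches of letters, and binding was not measured. On the chromosomes, Gzma and Gzmk are neighbours on chromosome 13 with no protein-coding gene between them. Nkg7 lies on chromosome 7, as does Il4i1, with 67 protein-coding genes between them; the other 8 genes lie elsewhere.

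The sort markers separated the arrays. The 6 CD8 T cell genes averaged 11.13 to 11.37 on the log2 scale over all 16 arrays. Il7r, which encodes CD127, lay at 5.00 to 6.60 in effector KO and 3.83 to 4.46 in effector WT, against 10.94 to 11.27 in memory KO and 10.29 to 10.96 in memory WT. The probe set for Il4i1 is shared with Nup62 and Il4i1b and cannot check the genotype; it read 5.74 to 5.99 in effector KO and 5.88 to 6.02 in effector WT, and 5.54 to 5.86 in memory KO and 5.93 to 6.05 in memory WT. Array effector KO 4 stood apart, with correlations over genes of 0.965 to 0.974 to the other 15 arrays, while the other pairs ran from 0.971 to 0.994. In sorted bulk cells, fewer cells of a type and less RNA per cell cannot be told apart.

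In effector cells, Lamp1 rose in KO and was the single granule gene that passed, 1 of 9, where 0.0361% of all genes passed upward. The granzyme genes Gzma and Gzmm had larger differences, 1.75 and 1.20 on the log2 scale, that did not pass, and their 4 KO arrays were widely spread. Gzmb, Gzmk, Prf1, Nkg7, Srgn and Ctsw differed by 0.27 or less in either direction. A gene passed at a Benjamini-Hochberg adjusted p under 0.05 over all genes in limma, and all log2 differences between KO and WT are KO minus WT.

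**Figure D1:**
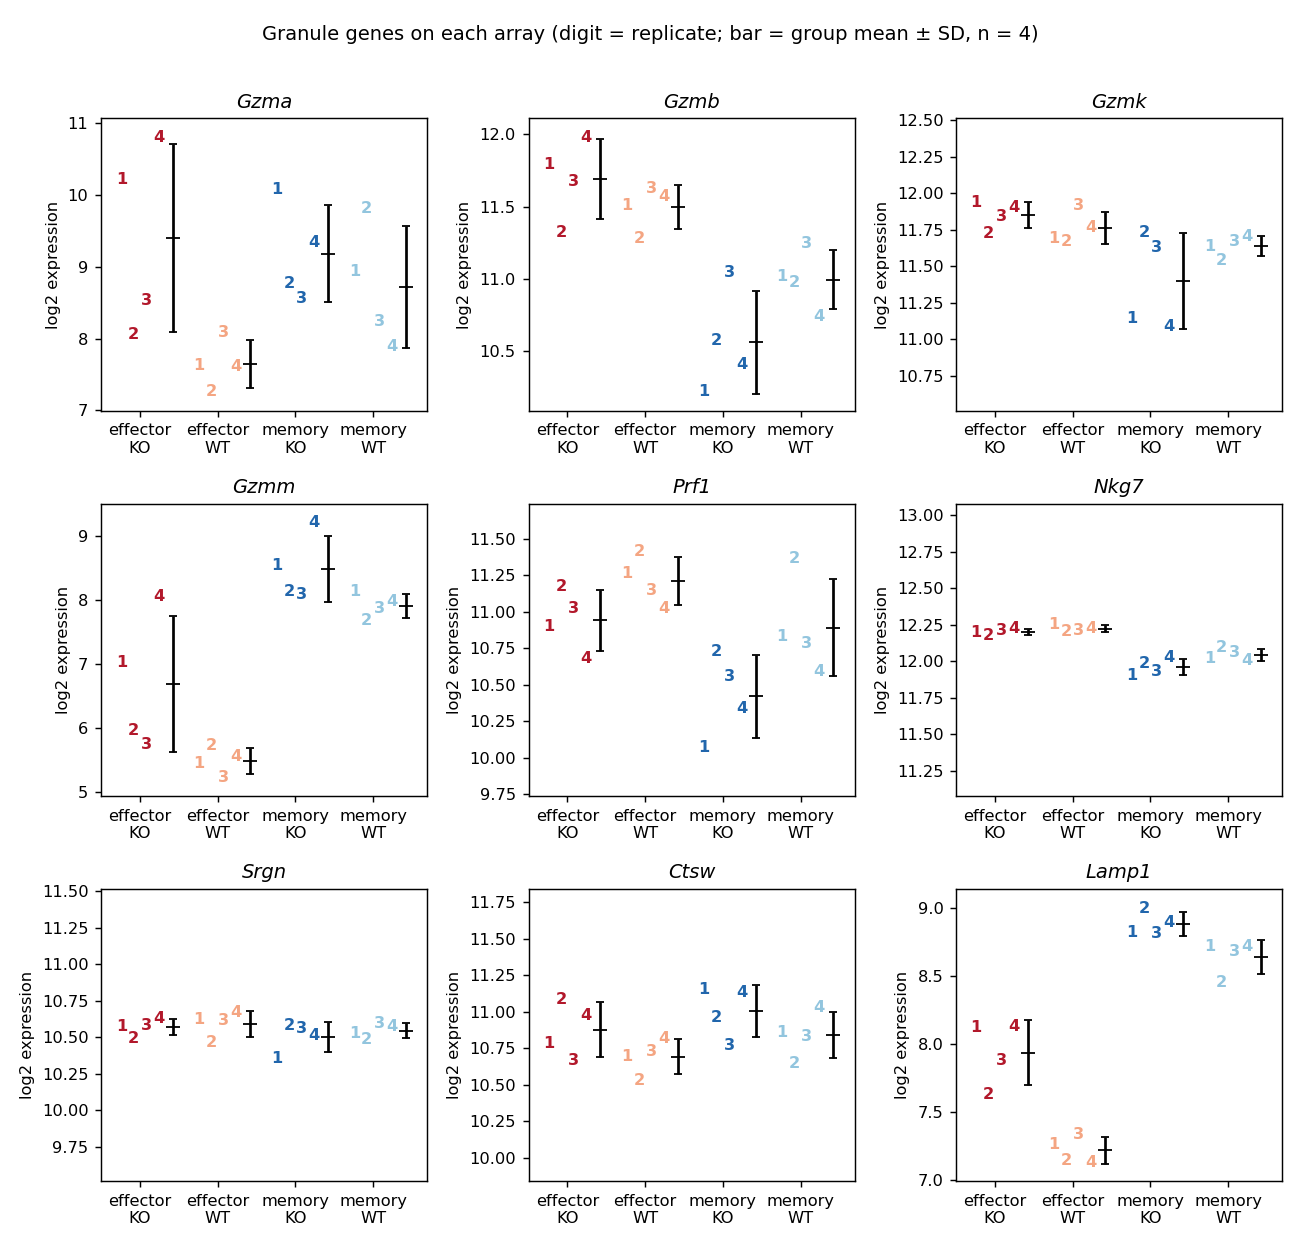
Log2 expression of the 9 granule genes on each of 16 arrays (vertical axis; digits are replicate numbers), by group, with the group mean and SD beside the digits (n = 4). Panels have their own axis range, at least 2 log2 units high; effector KO 1 and 4 stand above the other effector arrays in Gzma and Gzmm, and the effector KO and WT arrays of Lamp1 do not overlap.

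Lamp1 was at 8.12, 7.62, 7.87 and 8.13 log2 units in effector KO 1 to 4, against 7.26, 7.14, 7.34 and 7.13 in effector WT 1 to 4. Every KO array lay above every WT array, as did those of 2.71% of all genes, and the KO values stayed below the memory arrays, the lowest of which was at 8.46. The difference in log2 expression was 0.72 ± 0.11 (SE, n = 4 and 4), a 1.65-fold rise, with a 95% interval of 0.48 to 0.96 and an adjusted p of 0.0199. The exact two-sided permutation test gave 0.0286, the smallest p that 4 arrays against 4 allow. The call was lost when any of effector KO 1, 3 or 4 or effector WT 1, 2, 3 or 4 was left out, with differences of 0.66 to 0.76 and adjusted p-values of 0.0517 to 0.104, and when only the 8 effector arrays entered (adjusted p = 0.42). Il7r, whose protein the sort gated on, rose in these KO cells as well, with a difference of 1.65 ± 0.25 (adjusted p = 0.0183), and its part in the Lamp1 result was not tested.

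Gzma was at 10.21, 8.06, 8.53 and 10.80 in effector KO 1 to 4 and at 7.63, 7.26, 8.08 and 7.61 in effector WT 1 to 4. Effector KO 1 and 4 were high, effector KO 2 and 3 lay close to the WT arrays, and the groups overlapped. The difference was 1.75 ± 0.53 with an adjusted p of 0.442 and an exact permutation p of 0.0571. Without effector KO 4 it was 1.29, and without effector KO 2 it was 2.20. The SD was 1.31 in KO and 0.34 in WT.

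Gzmm showed the same arrangement of arrays. It was at 7.03, 5.96, 5.75 and 8.05 in effector KO 1 to 4, against 5.45, 5.72, 5.24 and 5.56 in effector WT 1 to 4. The groups did not overlap, as for 2.71% of all genes in that direction, by a margin of hundredths between effector KO 3 and effector WT 2. The difference was 1.20 ± 0.37 (adjusted p = 0.442, exact permutation p = 0.0286), and 0.75 without effector KO 4.

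The same 2 arrays, effector KO 1 and 4, were the highest effector arrays in Tbx21, which encodes the transcription factor T-bet. Tbx21 was at 7.94, 7.07, 6.97 and 8.76 in effector KO 1 to 4, against 6.76 to 7.09 in effector WT. NK cell markers, 5 of 6 measured, averaged 4.86 to 5.02 in effector KO and 4.83 to 5.23 in effector WT. Ncr1, which defines NK cells, lay under the array median on all 8 effector arrays, and Klrb1c read 4.27 and 4.97 on effector KO 1 and 4, 3.21 and 3.09 on effector KO 2 and 3, and 3.14 to 4.31 in effector WT. Il7r, the gene of the sort marker CD127, was also highest among effector arrays on effector KO 1 and 4, at 6.60 and 5.75, against 5.43 and 5.00 on effector KO 2 and 3. Ighm, a B cell gene, read 9.87 and 10.04 on effector KO 1 and 4, 9.12 and 9.19 on effector KO 2 and 3, and 8.66 to 9.31 in effector WT. B and leukaemia cell markers, 7 of 8 measured with Ighm among them, averaged 4.84 and 5.2 on effector KO 1 and 4. They averaged 4.70 and 4.72 on effector KO 2 and 3, and 4.65 to 4.88 in effector WT. Within effector KO, Cd79b, Ms4a1 and Pax5 were also highest on arrays 1 and 4, while Cd79a, Cd22 and Blnk were not. Of these, Ms4a1, Pax5 and Blnk lay under the array median on all 8 effector arrays. The part of these genes in the granzyme values was not tested. Array effector KO 4 was the highest of its group in 6 of the 9 granule genes and in 36.7% of all genes.

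**Figure D2:**
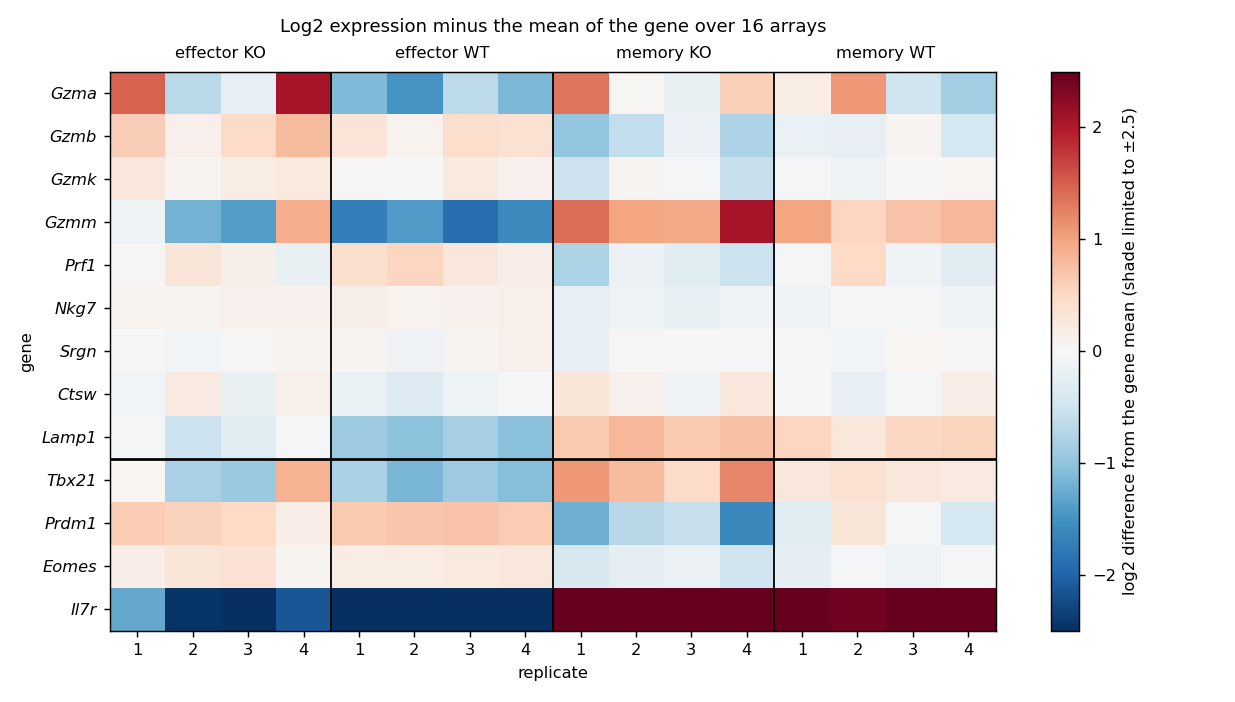
Log2 expression of the 9 granule genes, 3 regulators and Il7r on each array (columns, by group and replicate), as the difference from the mean of each gene over 16 arrays; shades end at 2.5. Gzma, Gzmm and Tbx21 are red on effector KO 1 and 4 or less blue there than on the other effector arrays, and Gzmm, Lamp1, Tbx21 and Il7r are blue in effector WT and red in memory cells.

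The remaining genes differed little between effector KO and WT. Gzmb was at 11.79, 11.32, 11.67 and 11.98 in KO and at 11.51, 11.28, 11.62 and 11.57 in WT, which overlap, and the difference was 0.19 ± 0.17 (95% interval -0.17 to 0.55). Gzmk differed by 0.09 (-0.18 to 0.36) and Ctsw by 0.19 (-0.07 to 0.44). Prf1 was at 10.90, 11.17, 11.02 and 10.68 in KO and at 11.26, 11.41, 11.15 and 11.02 in WT, so that its difference, -0.27 ± 0.17, ran against those of the granzymes (adjusted p = 0.638). For Nkg7 and Srgn the intervals were narrow, -0.17 to 0.12 and -0.19 to 0.15. Over the 9 genes, 6 differences were above 0 and the median was 0.19, beside 53.3% above 0 and a median of 0.01 over all genes.

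In memory cells, 0 of the 9 granule genes passed in limma, where 0.113% of all genes did, and 3 of the 9 had an unadjusted p under 0.05, against 11.3% of all genes. Prf1 and Gzmb were lower in KO by 0.47 and 0.43 log2 units, and Lamp1 was higher by 0.24. Gzma and Gzmm were higher and Gzmk lower, each with wide intervals that included 0. Of the 9 differences, 4 were above 0, with a median of -0.04 beside 0.02 over all genes.

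Gzmb was at 10.22, 10.57, 11.05 and 10.41 in memory KO 1 to 4, against 11.02, 10.98, 11.25 and 10.74 in memory WT 1 to 4. Memory KO 3 lay among the WT arrays and the other 3 below them all. The difference was -0.43 ± 0.17 (95% interval -0.79 to -0.07, adjusted p = 0.345, exact permutation p = 0.1143). It was -0.60 without memory KO 3, with an adjusted p of 0.0814.

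Prf1 was at 10.07, 10.72, 10.56 and 10.34 in memory KO 1 to 4, against 10.83, 11.36, 10.78 and 10.59 in memory WT 1 to 4. Only memory KO 2 reached above the lowest WT array, and memory WT 2 was the highest. The difference was -0.47 ± 0.17 (95% interval -0.83 to -0.11, adjusted p = 0.303, exact permutation p = 0.0571). It was -0.31 without memory WT 2.

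Gzmk was at 11.15, 11.73, 11.63 and 11.09 in memory KO 1 to 4 and at 11.64, 11.54, 11.67 and 11.70 in memory WT. Memory KO 1 and 4 were low, memory KO 2 and 3 lay within or near the WT range, and the difference of -0.24 had a 95% interval of -0.51 to 0.03. Gzmm was at 8.54, 8.14, 8.09 and 9.21 in memory KO 1 to 4 and at 8.13, 7.68, 7.87 and 7.98 in memory WT, with memory KO 1 and 4 the highest of all 16 arrays. Its difference was 0.58 ± 0.37 (adjusted p = 0.603). Gzma was spread in both groups, at 10.07, 8.77, 8.55 and 9.34 in memory KO and 8.93, 9.82, 8.24 and 7.89 in memory WT, a difference of 0.46 ± 0.53.

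Lamp1 did not pass here, although its arrays did not overlap. It was at 8.82, 9.0, 8.82 and 8.90 in memory KO, against 8.71, 8.46, 8.68 and 8.72 in memory WT, and the difference was 0.24 ± 0.11 (adjusted p = 0.437, exact permutation p = 0.0286). Groups that do not overlap in the upward direction were found for 3.12% of all genes. Nkg7 differed by -0.08 (95% interval -0.23 to 0.06), Srgn by -0.04 (-0.21 to 0.13) and Ctsw by 0.16 (-0.09 to 0.41).

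Averages over the markers of other cells overlapped between the memory groups, while 1 B cell gene differed past the threshold. B and leukaemia cell markers, 7 of 8 measured, averaged 5.48 to 6.01 in memory KO and 5.93 to 7.06 in memory WT. Of these, Cd22 passed in limma, with a difference of -1.04 ± 0.16 (adjusted p = 0.0145). Ms4a1 and Pax5, with differences of -1.40 and -1.09, did not pass. Their groups did not overlap, as for 3.37% of all genes in that direction. Ighm alone of these markers was higher in KO, by 0.24, and did not pass. Myeloid markers, 8 of 8 measured, averaged 4.39 to 5.38 in memory KO and 4.72 to 5.22 in memory WT, and NK cell markers 5.91 to 6.24 in memory KO and 5.82 to 6.11 in memory WT. The NK cell markers differed in direction, and none passed. Klrb1c and Ncr1 had differences of 0.84 and 0.38, Tyrobp and Fcer1g of -0.65 and -0.35, and Itga2 of -0.02. Klrb1c read 6.34, 4.87, 5.51 and 6.38 in memory KO 1 to 4, against 4.37 to 5.36 in memory WT. Ncr1 passed the array median on 3 of all 16 arrays. The part of these cells in the granule values was not tested.

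**Figure D3:**
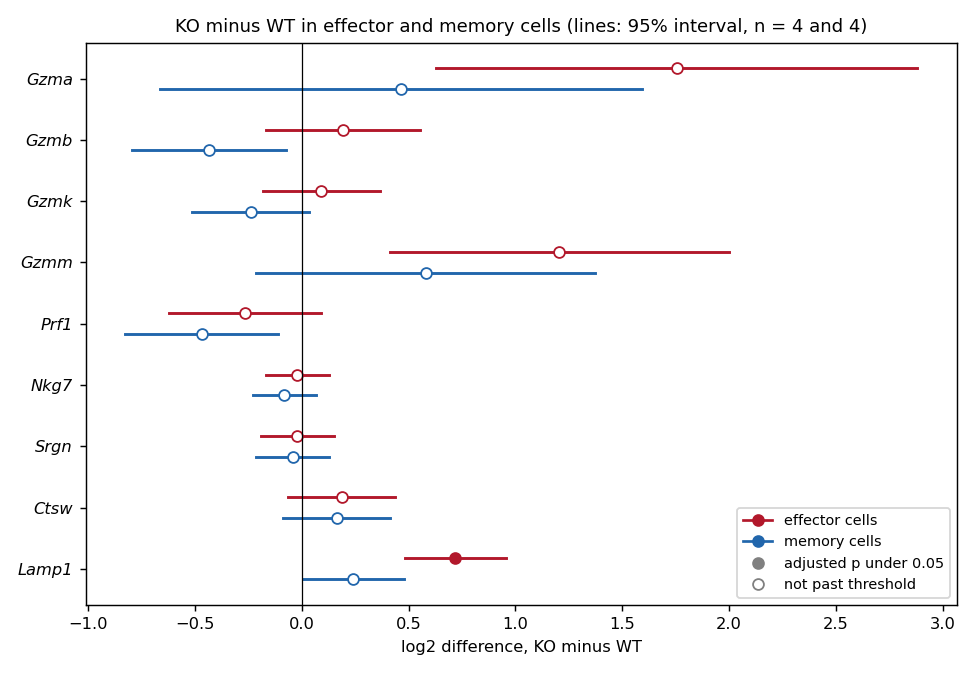
Log2 difference, KO minus WT, of the 9 granule genes in effector cells (upper line of each pair) and memory cells (lower line), with 95% intervals from limma (n = 4 and 4); filled points passed at an adjusted p under 0.05. Lamp1 in effector cells is the filled point, and Gzmb and Gzmk lie right of 0 in effector cells and left of it in memory cells.

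The difference between the effector and the memory KO effect was tested as an interaction, effector minus memory. Limma called 0 of the 9 genes and 0 of all 22180 genes, and 2 of the 9 and 5.84% of all genes had an unadjusted p under 0.05. Lamp1 had an interaction of 0.48 ± 0.16 (unadjusted p = 0.00824, adjusted p = 0.841). Gzmb, whose effect was 0.19 in effector and -0.43 in memory cells, had one of 0.63 ± 0.24 (95% interval 0.12 to 1.14, unadjusted p = 0.0189, adjusted p = 0.841). Gzmk followed the same signs, with an interaction of 0.33 (-0.05 to 0.72). Gzma and Gzmm were higher in KO in both subsets, with interactions of 1.29 (-0.30 to 2.88) and 0.62 (-0.50 to 1.75). The granzymes therefore differed in sign between subsets for Gzmb and Gzmk and shared it for Gzma and Gzmm, and no such difference passed after adjustment. All 9 interaction values were above 0, where 49.7% of those of all genes were. The 9 values come from the same arrays and are not independent. Those of Srgn (0.02, 95% interval -0.22 to 0.26) and Ctsw (0.02, -0.33 to 0.38) were near 0 and turned sign with array weights.

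More of the granule genes passed between effector and memory cells than between KO and WT. In KO chimeras, 5 of the 9 granule genes passed between the subsets, where 7.43% of all genes did. Gzmb, Gzmk and Nkg7 were higher and Gzmm and Lamp1 lower in effector cells. In WT chimeras Gzmm and Lamp1 passed, again lower in effector cells, where 3.22% of all genes passed. The 2 comparisons use different arrays, and their difference is the interaction above, which did not pass for any of the 9. These log2 differences are effector minus memory.

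**Figure D4:**
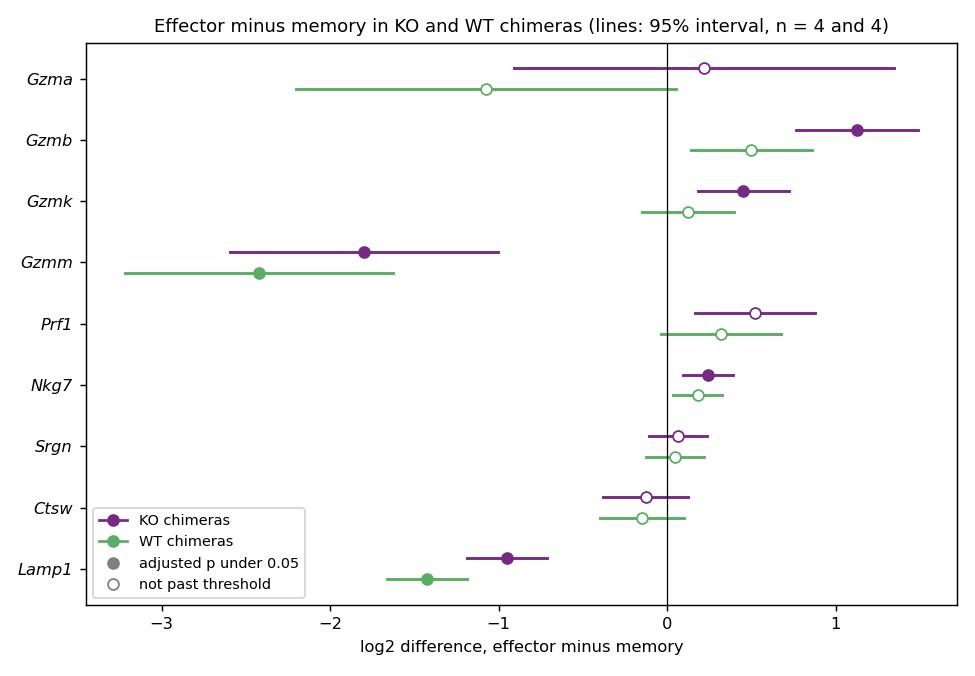
Log2 difference, effector minus memory, of the 9 granule genes in KO chimeras (upper line of each pair) and WT chimeras (lower line), with 95% intervals from limma (n = 4 and 4); filled points passed at an adjusted p under 0.05. Gzmm and Lamp1 lie left of 0 in both, and Gzmb lies right of 0 in both.

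Gzmb was 2.19-fold higher in effector KO than in memory KO, with a log2 difference of 1.13 ± 0.17 (adjusted p = 0.000697). All effector KO arrays, 11.32 to 11.98, lay above all memory KO arrays, 10.22 to 11.05. In WT the arrays did not overlap either, 11.28 to 11.62 in effector and 10.74 to 11.25 in memory cells, but the difference of 0.50 ± 0.17 did not pass (adjusted p = 0.147). Non-overlapping groups with effector on top made up 4.06% of all genes in KO and 6.41% in WT. The order of the group means for Gzmb was effector KO, effector WT, memory WT and memory KO, and no pair of neighbours in that order differed past the threshold.

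Gzmm had the reverse order of subsets. It was 5.36-fold lower in effector WT than in memory WT, at means of 5.49 ± 0.20 and 7.91 ± 0.19 (SD, n = 4 each), a log2 difference of -2.42 ± 0.37 (SE, adjusted p = 0.00138). In KO it was 3.48-fold lower in effector cells, at means of 6.70 ± 1.06 and 8.49 ± 0.52 (SD, n = 4 each), with a log2 difference of -1.80 ± 0.37 (SE, adjusted p = 0.00735). The effector KO mean stood between effector WT and memory WT with the widest SD of the 4 groups. Every effector array lay below every memory array in KO, 5.75 to 8.05 against 8.09 to 9.21, as for 6.1% of all genes, and likewise in WT, 5.24 to 5.72 against 7.68 to 8.13, as for 6.8%. Averages of NK cell markers and of B and leukaemia cell markers were lower in effector cells as well. NK cell markers averaged 4.86 to 5.02 in effector KO and 5.91 to 6.24 in memory KO, and 4.83 to 5.23 in effector WT and 5.82 to 6.11 in memory WT. B and leukaemia cell markers averaged 4.70 to 5.2 in effector KO and 5.48 to 6.01 in memory KO, and 4.65 to 4.88 in effector WT and 5.93 to 7.06 in memory WT. Klrb1c, an NK receptor gene, fell in effector KO against memory KO with a log2 difference of -1.89 ± 0.41 (adjusted p = 0.00974). Means of Klrb1c, Ncr1, Tyrobp and Fcer1g were lower in effector than in memory cells in both KO and WT chimeras. Itga2, the other NK cell marker measured, had means of 5.14 in effector KO and 5.66 in memory KO. In WT it went the other way, at 5.85 in effector and 5.67 in memory cells. The part of these cells in the Gzmm and Lamp1 differences was not tested.

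Lamp1 was 2.69-fold lower in effector WT than in memory WT, with means of 7.22 ± 0.10 and 8.64 ± 0.13 (SD, n = 4 each) and an adjusted p of 3.52e-06. In KO it was 1.93-fold lower, with means of 7.94 ± 0.24 and 8.88 ± 0.09 (SD, n = 4 each) and an adjusted p of 0.000109. Its 4 groups ran, low to high, effector WT, effector KO, memory WT and memory KO. The first pair of neighbours differed past the threshold, the last did not, and effector KO was not tested against memory WT. Gzmm had the same order of group means, with none of the tested neighbours apart past the threshold.

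Gzmk and Nkg7 passed in KO chimeras by small margins. Gzmk was at 11.73 to 11.94 in effector KO and 11.09 to 11.73 in memory KO (log2 difference 0.45 ± 0.13, adjusted p = 0.0413), and the call was lost in 11 of the 16 fits that left out 1 array, up to an adjusted p of 0.143. These were the fits without effector KO 1, 3 or 4, effector WT 1, 2 or 4, memory KO 1 or 4, or memory WT 1, 3 or 4. Nkg7 was at 12.17 to 12.22 in effector KO and 11.90 to 12.03 in memory KO (0.24 ± 0.07, adjusted p = 0.0438), and its call was lost in all 16 such fits, with adjusted p-values of 0.0509 to 0.0973. In WT chimeras the arrays of Nkg7 did not overlap, at 12.20 to 12.25 and 12.00 to 12.09, as for 6.41% of all genes in that direction. The difference of 0.18 ± 0.07 did not pass (adjusted p = 0.218).

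Prf1 was higher in effector KO than in memory KO by 0.52 ± 0.17 without passing (adjusted p = 0.0735), and it passed without effector KO 4, memory KO 2 or memory WT 2, with an adjusted p as low as 0.0372. Gzma differed by 0.22 in KO and by -1.07 ± 0.53 in WT, neither past the threshold, and the KO value turned to -0.25 without effector KO 4. Srgn, at 10.36 to 10.67 over all 16 arrays, and Ctsw, at 10.53 to 11.15, did not differ between the subsets beyond their spread. For Srgn the 95% intervals were -0.10 to 0.24 in KO and -0.13 to 0.22 in WT, and for Ctsw -0.38 to 0.12 in KO and -0.40 to 0.10 in WT. The group means of Prf1 and Nkg7 ran, high to low, effector WT, effector KO, memory WT and memory KO, and those of Gzmk effector KO, effector WT, memory WT and memory KO, without a tested pair of neighbours apart past the threshold. Gzma was highest in effector KO and lowest in effector WT, with both memory groups between them.

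The rest of the granule pathway was followed in 31 further genes, of which 30 were measured. Between KO and WT, 0 of the 30 passed in limma in either subset, where 0.0541% of all genes passed in effector and 0.113% in memory cells. An unadjusted p under 0.05 was found for 7 of them in effector and 13 in memory cells, against 9.32% and 11.3% of all genes. In memory cells 24 of the 30 differences were below 0, with a median of -0.19, beside 0.02 over all genes; in effector cells 18 were below 0, with a median of -0.07. The 5 measured granzyme paralogs Gzmc, Gzmd, Gzmf, Gzmg and Gzmn were dim, with 2 readings of Gzmc alone above the array median among all 16 arrays; Gzme was not measured on its own, as its probe set is shared with Gzmd.

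**Figure D5:**
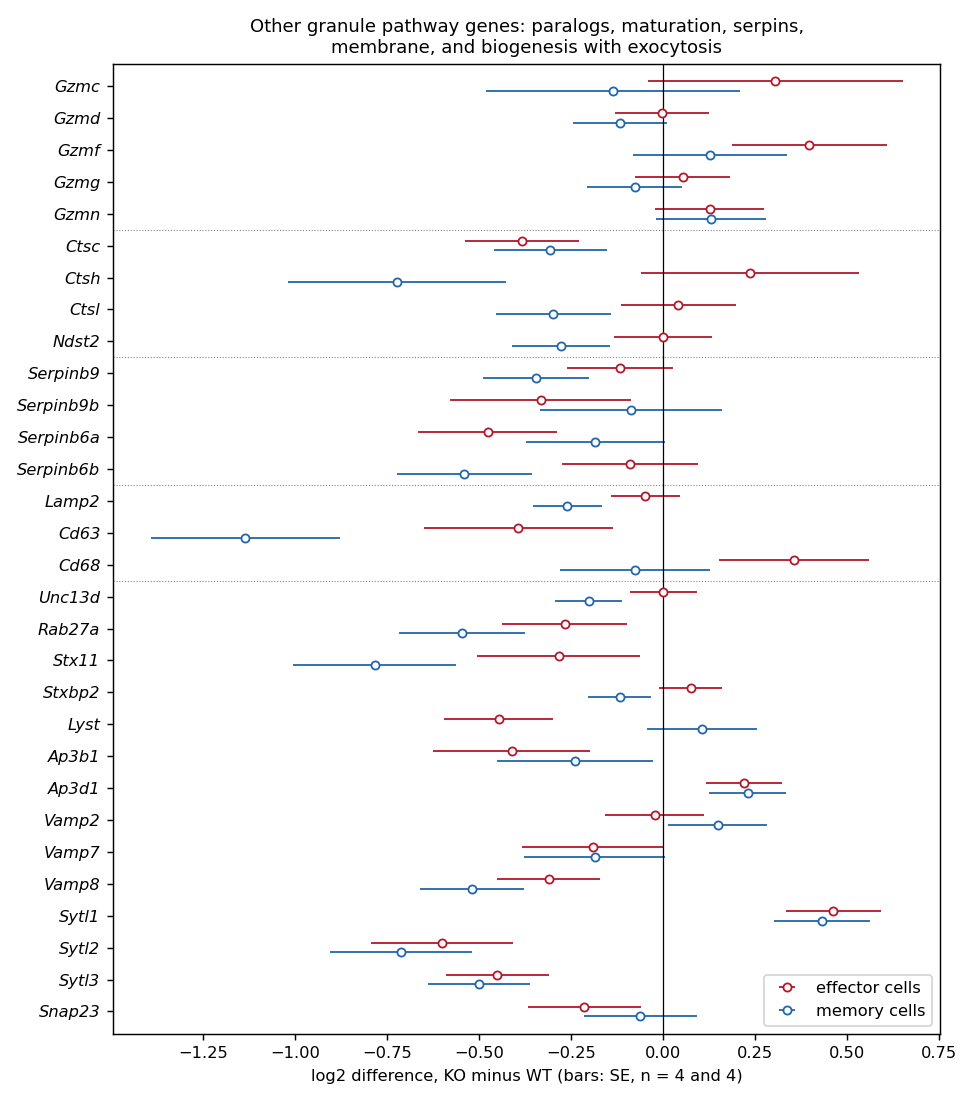
Log2 difference, KO minus WT, of 30 other granule pathway genes in effector cells (upper point of each pair) and memory cells (lower point), with SE from limma (n = 4 and 4); dotted lines part granzyme paralogs, maturation enzymes, serpins, membrane proteins, and genes of granule biogenesis and exocytosis. No point passed, 24 of the 30 memory points lie left of 0, and Cd63 in memory cells lies farthest left.

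The synaptotagmin-like genes encode proteins that tether granules through Rab27a, the GTPase that guides them to the membrane. Sytl1 was at 6.18, 6.36, 6.40 and 6.22 in effector KO and 5.84, 5.53, 5.91 and 6.03 in effector WT. These groups did not overlap, as for 2.71% of all genes in that direction, and the difference was 0.46 ± 0.13 (adjusted p = 0.385). In memory cells the Sytl1 difference was 0.43 ± 0.13 (adjusted p = 0.223). Sytl3 had a difference of -0.45 ± 0.14 in effector cells (adjusted p = 0.442) and of -0.50 ± 0.14 in memory cells (adjusted p = 0.194). Sytl2 was at 8.38, 9.32, 9.29 and 8.52 in effector KO and 9.42, 9.43, 9.48 and 9.58 in effector WT, without overlap, as for 1.94% of all genes in that direction, and with effector KO 1 and 4 low. Its differences were -0.60 ± 0.19 in effector cells (adjusted p = 0.442) and -0.71 ± 0.19 in memory cells (adjusted p = 0.185). The memory groups did not overlap either, as for 3.37% of all genes in that direction. Rab27a, named here after its values were seen, had a difference of -0.27 ± 0.17 in effector cells (adjusted p = 0.639). Its effector groups did not overlap, as for 1.94% of all genes in that direction. Between the memory groups its difference was -0.55 ± 0.17 (adjusted p = 0.239).

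The pathway genes with the smallest p in memory KO against WT were Cd63 and Vamp8. Cd63, a tetraspanin of granule and lysosome membranes, was at 5.81, 6.69, 6.57 and 5.61 in memory KO and 7.75, 6.89, 7.27 and 7.30 in memory WT. The groups did not overlap, as for 3.37% of all genes in that direction, and the difference of -1.14 ± 0.26 did not pass (adjusted p = 0.112). Vamp8, a fusion protein of the exocytic pathway, had a difference of -0.52 ± 0.14 (adjusted p = 0.185). Cd63 is also abundant in platelets and myeloid cells. The platelet markers Pf4 and Ppbp, 2 of 2 measured, averaged 4.99 to 6.53 in memory KO and 6.11 to 7.27 in memory WT, and the myeloid markers are given above for these groups. Ppbp had a difference of -0.98 ± 0.39 (adjusted p = 0.349), and Pf4 one of -0.77 ± 0.33 (adjusted p = 0.404). Their part in the Cd63 values was not tested.

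Between effector and memory cells, 7 of the 30 pathway genes were higher and 3 lower in KO chimeras, where 3.14% and 4.3% of all genes were, and 3 were higher and 3 lower in WT chimeras, where 0.92% and 2.3% were. Sytl2 rose most in both, with log2 differences of 1.38 ± 0.19 in KO (adjusted p = 0.000411) and 1.27 ± 0.19 in WT (adjusted p = 0.00121). Sytl3 (0.54 ± 0.14) and Unc13d (0.36 ± 0.09), which encodes the granule priming factor Munc13-4, rose in WT too, and both also rose in KO (0.60 ± 0.14 and 0.56 ± 0.09). Cd68 (0.74 ± 0.20) and the serpin gene Serpinb6b (0.70 ± 0.18) rose in KO. Cd63 fell in both, with log2 differences of -1.13 in KO (adjusted p = 0.0127) and -1.87 in WT (adjusted p = 0.000584). Ctsh, a lysosomal cathepsin gene, fell too, with -1.01 in KO (adjusted p = 0.0492) and -1.97 in WT (adjusted p = 0.00111). Lyst, the gene of a regulator of lysosome size, fell by 0.59 in KO, and the cathepsin gene Ctsl fell by 0.76 in WT. Myeloid markers averaged 4.33 to 4.65 in effector KO and 4.37 to 4.51 in effector WT, below most memory arrays, and their part in the values of Cd63, Ctsh and Ctsl was not tested.

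Of 8 regulators of granule genes, 6 were measured alone, and 0 passed between KO and WT in limma. Over all genes 0.0541% passed in effector and 0.113% in memory cells. An unadjusted p under 0.05 was found for 1 of the 6 in effector and 2 in memory cells, against 9.32% and 11.3% of all genes. Prdm1, which encodes the effector factor Blimp-1, came closest in memory cells, at 7.23, 7.74, 7.85 and 6.82 in KO and 8.13, 8.74, 8.40 and 8.01 in WT. Its groups did not overlap, as for 3.37% of all genes in that direction, and the difference was -0.91 ± 0.20 (adjusted p = 0.0887). Eomes, the T-box relative of Tbx21, had a difference of -0.22 ± 0.10 there (adjusted p = 0.406). Runx3, a driver of the CD8 cytotoxic programme, had a difference of -0.17 ± 0.10 in effector KO against WT (adjusted p = 0.624), and Tbx21 one of 0.77 ± 0.29 (adjusted p = 0.472). Between the subsets Tbx21 fell in effector cells, with differences of -1.10 in KO (adjusted p = 0.027) and -1.27 in WT (adjusted p = 0.0202), as Gzmm did. Prdm1 rose by 1.50 ± 0.20 in KO (adjusted p = 0.000278) and 0.79 ± 0.20 in WT (adjusted p = 0.0392), Eomes rose by 0.55 ± 0.10 in KO (adjusted p = 0.00204), and Id2 rose by 0.37 ± 0.10 in WT (adjusted p = 0.0456).

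The genes of likest pattern to each granule gene were taken by Pearson correlation over the 16 arrays, which share the effector and memory sorts; how much of each value the sorts carry was not tested. Gzmm was most like Slco3a1 (r = 0.983), Cpne3 (0.982) and Bst2 (0.974). Lamp1 was most like Pdlim1 (0.979), the migration receptor gene S1pr1 (0.977) and Klhl6 (0.976). Prf1 followed Ide (0.983), Irf8 (0.963) and Lman1 (0.952), and Gzmb followed AW112010 (0.952), the integrin gene Itgad (0.944) and Itpk1 (0.939). Gzma was nearest to S1pr5 (0.857), Nmi (0.839) and Mgmt (0.835). Gzmk was nearest to Rnf19a (0.911), Nr4a3 (0.905) and Incenp (0.9), and Nkg7 to Bscl2 (0.946), Dgkz (0.938) and Pfn1 (0.934). Ctsw was nearest to Daxx (0.853), Smad3 (0.852) and Mitd1 (0.848). Srgn, which hardly varied, reached 0.793 with Tcp10a, 0.786 with Slc6a11 and 0.774 with Hoxc12; Tcp10a and Hoxc12 lay under the array median on every array.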

How the data were processed

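RNA of 16 samples of sorted mouse spleen CD8 T cells was measured on Affymetrix arrays; per the labels' protocols it was extracted with the RNeasy Micro Kit and 1 ng was amplified and biotin-labelled with the GeneChip WT Pico kit. The values deposited by the authors, 1 for each of 41345 probe sets, were taken as log2 expression from their range of 0.74 to 14.05. The log base, the summarization and the normalization behind them are not given in the sources; array medians of 4.12 to 4.22 are near equal. No detection calls came with them, and the number of arrays limits the precision. The probe table gave 23521 probe sets with exactly 1 symbol, 1814 with several and none for 16010; the brightest probe set per gene left 22180 genes.

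A linear model with 4 group means was fitted to all 16 arrays with limma 3.58.1 under R 4.3.3 (12 residual degrees of freedom, prior 4.23), with 5 comparisons, two-sided Benjamini-Hochberg adjustment over all genes and a threshold of 0.05. Exact permutation tests of the difference in means are two-sided. The pipeline was tested on simulated data. Whether each sample is its own animal is not in the labels; the p-values then cover only the spread of these samples, which may be technical. The members and lists were chosen with earlier results of these data known. The text names the 9 members, the listed pathway genes and regulators that passed between KO and WT or in the interaction, the 2 with the smallest p per KO comparison, the 3 largest rises and falls that passed between subsets, and the 3 likest genes per member, without predicted genes. Tcf7 and Zeb2 had no probe set of their own symbol. Gene order came from RefSeq on GRCm38.p6, whose coordinates apply to the promoter windows only. The alternatives were a filter on dim probe sets, the mean of probe sets, quantile normalization, subtracted array medians, a trend and robust variance model, array weights, 2 replicate blocks, fits of 8 arrays and each array left out in turn.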

Additional observations from a re-analysis of the deposited data

Results flagged for a closer look

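Lamp1 on array memory WT 2 read 8.46, while the other memory WT arrays read 8.68 to 8.72. It was the 1 sample far from the rest of its group among 36 groups of 4 tested (9 genes in 4 groups), and chance flags about 1 in 20 groups.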

How the results depend on the processing

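Under the alternatives that keep all arrays in 1 fit, the number of granule genes past the threshold stayed within 1.5 times. In fits of 8 arrays it was 0 in effector KO against WT and 2 in effector against memory KO (Gzmb and Lamp1). Over the fits without 1 array each it ran from 0 to 1 and from 3 to 5 in these comparisons. It stayed at 0 in memory KO against WT and in the interaction, and at 2 in effector against memory WT (Gzmm and Lamp1). The labels do not say what equal replicate numbers share. Same-number correlations of deviations from the group means were -0.032 to 0.239, above 0.1 for every pair of no 2 groups, so the numbers were not used as pairs. Between effector and memory they were 0.087 to 0.239 in WT, where all 4 arrays matched their own number best, and 0.018 to 0.147 in KO, where 3 of 4 did, a hint from the data and not from the design. With the number as a fixed replicate block the counts of granule genes were 1, 0, 0, 4 and 2, and with genotype and number as a random replicate block 1, 0, 0, 5 and 2. The fixed block called 29 of all genes in effector and 104 in memory KO against WT, against 12 and 25 without it.

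Values near 0 turned sign. Srgn was 0.0153 in effector KO minus WT under quantile normalization, and array weights gave interactions of -0.006 for Srgn and -0.0041 for Ctsw and -0.28 for Gzma in effector minus memory KO. Without 1 array, Srgn ran from -0.0662 to 0.0034 in effector and -0.0694 to 0.0052 in memory KO minus WT, and from -0.0281 to 0.0467 in the interaction, Ctsw from -0.0565 to 0.092 in the interaction, and Gzma from -0.25 to 0.66 in effector minus memory KO. With array weights Gzmk and Nkg7 no longer passed in effector against memory KO (adjusted p = 0.0701 and 0.0578) and Prf1 did (0.0398), as with the fixed block (0.0531, 0.0751 and 0.0129). Gzmb passed in effector against memory WT with array weights (0.0438) and in the 8 WT arrays (0.0358), and Nkg7 with the trend and robust model (0.0117). Gzmm in effector against memory KO was lost in the 8 KO arrays (0.0828).

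The counts over all genes moved more. For effector KO against WT they were 4 in 8 arrays and 4 to 42 without 1 array, against 12. For memory KO against WT they were 42 with array weights, 7 in 8 arrays and 11 to 249 without 1 array, against 25, and with array medians subtracted 7 genes were higher and 25 lower, against 8 and 17. In the interaction 5 passed without memory KO 3. For effector against memory they were 600 in 8 arrays and 961 to 2044 without 1 array in KO, against 1649, and 1644 with array weights, 1320 in 8 arrays and 359 to 1037 without 1 array in WT, against 715. The cause was not tested.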
